A study of Mus musculus with 8 samples.

Results

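The circadian clock genes of mouse hypothalamus and liver are described here, as 10 named members: Arntl, Clock, Per1, Per2, Cry1, Cry2, Nr1d1, Dbp, Bhlhe40 and Nfil3. They were chosen by name as core clock genes and their close partners, and each was read from the brightest probe that the platform annotation ties to that 1 symbol. All 10 had exactly 1 such probe, among 13840 genes with a probe of 1 symbol. The arrays were single-channel chemiluminescent arrays, and each was read from 1 pool of RNA from 6 male mice. The 8 groups crossed tissue (hypothalamus, liver), strain and diet, with 1 array each and no repeated pool. The strains were C57BL/6J, called B6, and B6.CAST-17, a congenic strain which is B6 but for a homozygous CAST stretch of chromosome 17. The diets were chow (LabDiet) and a choice for 24 h between a mix of 78% carbohydrate and 22% protein and a mix of 78% fat and 22% protein, called 2-choice. In each strain 20 to 25 mice had selected their own diet for 10 days, and those with the most extreme intakes went into the study after 6 weeks back on chow, with the choice offered again for 1 day, so the pools hold selected animals. Collection was 4 h before the lights went off. The labels tie that hour to the second day of the 2-choice test, and the hour of the chow pools was not established here. Had it been another hour, hour and diet cannot be told apart, which bears on genes that change over the day. The age of the mice is not given in the sources used here.

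The clock is a feedback loop within each cell. The transcription factors BMAL1 (gene Arntl) and CLOCK bind E-boxes and switch on the Period and Cryptochrome genes, whose proteins then block them. In a linked loop the receptor REV-ERB alpha (Nr1d1) represses Arntl, and DBP and NFIL3 act in opposite directions at D-boxes of output genes. The suprachiasmatic nucleus of the hypothalamus is set by light and holds the master clock, while the clock of liver also follows the hour of feeding. In night-active mice Arntl and the Per genes peak at nearly opposite times of day.

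The members' gene starts were looked up in a set of RefSeq promoter windows (build GRCm38.p6). In that set 8 of the 10 were found, in 12 windows around a start, each with the 250 bases before it. Per2 and Bhlhe40 were not matched. Of 4 motifs searched on both strands, the E-box CACGTG was found for 2 members, the REV-ERB and ROR monomer site AGGTCA for 4, the CRE core TGACGT, where CREB binds, for 1, and the D-box TTANGTAA for 0. No motif searched holds another. Counted by window, 2 of the members' 12 hold the E-box, 4 the monomer site, 1 the CRE core and 0 the D-box. Of all 32851 windows, 7.15% hold the E-box, 16.3% the monomer site, 7.51% the CRE core and 2.32% the D-box. The matches outside Per1 are shown in 30 bases each, on the gene's strand, to place the regulatory letters of the loop beside the levels that follow. Capitals mark the match, as AGGTCA or, on the other strand, TGACCT.
Arntl (chr7:113207530-113207559, plus strand, first base of the match 32 after the start): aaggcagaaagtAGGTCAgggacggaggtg
Clock (chr5:76303604-76303633, minus strand, -119): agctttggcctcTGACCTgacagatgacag
Nfil3 (chr13:52981034-52981063, minus strand, -12): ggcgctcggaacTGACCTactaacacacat
Cry1 (chr10:85185097-85185126, minus strand, -60): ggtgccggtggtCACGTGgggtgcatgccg
Longer stretches are shown for the members furthest apart between diets in liver, by a rule that took the 3 with the widest mean gap among those 1.5-fold or more apart and alike in sign in both strains (Per2, Arntl and, untested, Per1). The 250 bases before the later Arntl start (chr7:113207261-113207510) hold none of the 4 motifs, and the 250 before the 2 Per1 starts (chr11:69098699-69098948 and chr11:69099902-69100151, both plus strand) hold an E-box and a monomer site in the first and a CRE core in the second.
Arntl, later start: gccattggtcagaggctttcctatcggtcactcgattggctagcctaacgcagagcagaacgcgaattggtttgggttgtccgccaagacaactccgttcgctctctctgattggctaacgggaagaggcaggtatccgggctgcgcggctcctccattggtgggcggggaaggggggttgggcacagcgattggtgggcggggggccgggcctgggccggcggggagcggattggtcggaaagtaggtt
Per1, first start: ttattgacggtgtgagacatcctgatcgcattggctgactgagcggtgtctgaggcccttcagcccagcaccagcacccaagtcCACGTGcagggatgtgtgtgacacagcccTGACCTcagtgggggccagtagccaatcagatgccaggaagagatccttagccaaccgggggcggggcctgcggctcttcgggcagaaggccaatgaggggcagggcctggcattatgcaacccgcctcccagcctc
Per1, second start: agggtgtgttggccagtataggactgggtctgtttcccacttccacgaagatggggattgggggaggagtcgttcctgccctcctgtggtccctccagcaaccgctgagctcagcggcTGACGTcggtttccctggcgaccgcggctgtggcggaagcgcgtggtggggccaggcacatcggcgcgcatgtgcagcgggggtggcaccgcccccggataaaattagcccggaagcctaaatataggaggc

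Levels are log2 intensities, quantile normalized within each tissue's 4 arrays unless stated. The authors had brought the 2 strains of each tissue and diet to 1 common distribution, and these pairs differed: the median intensity was 560 for hypothalamus chow, 1338 for hypothalamus 2-choice and 700 to 702 in liver. Each diet comparison therefore crosses 2 scalings, so the diet and the authors' scaling cannot be told apart. Summed markers followed the tissue labels, with hepatocyte markers at 22.87 to 23.33 in liver and 11.39 to 13.47 in hypothalamus, and hypothalamic peptides at 19.07 to 19.60 in hypothalamus and 11.78 to 12.48 in liver. Of the neuron markers, Snap25 was at 7.55 to 9.26 in hypothalamus, no higher than the filter level of 9.26. Groups were taken from titles and characteristics, and some free-text descriptions go against them: all 4 liver descriptions name hypothalamus, the liver chow ones name the 2-choice diet, that of the liver B6 2-choice pool names congenic mice, and that of the hypothalamus congenic chow pool names C57BL/6J. The chromosome 17 genes Decr2 and Cyp4f14 differed between congenic and B6 livers by -2.63 and -1.79 on chow and -2.32 and -1.53 on 2-choice. In hypothalamus they differed by -3.26 and -2.96 on 2-choice, but by 1.38 and 2.69 in the chow pair. This check thus did not bear out the strain labels of the hypothalamus chow arrays. The strains of those arrays are given as labelled and are not settled. A diet difference averaged over the strains is the same whichever of those arrays is congenic. Some values that depend on which array is congenic are also given with those strains exchanged, an alternative chosen after seeing the data. The others are given as labelled only.

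Of the 10 members, 8 passed the filter on dim probes (mean level not under the 40th percentile in its tissue, 9.04 in liver and 9.26 in hypothalamus) in both tissues, and Clock and Per1 in neither. Clock, the partner of BMAL1, was at 8.05 and 9.93 in the B6 hypothalamus on chow and 2-choice, and at 8.52 and 9.98 in the congenic one. In liver it was at 9.34 and 9.04 in B6 and 8.04 and 9.06 in congenic pools. Per1, the light-induced Period gene, was at 7.87 to 8.83 on 7 of its arrays apart from 10.13 in the B6 hypothalamus on 2-choice. Both genes thus lay near the floor of the arrays on most of them, and their values are given without a test. None of the 10 genes lies on chromosome 17.

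**Figure D1:**
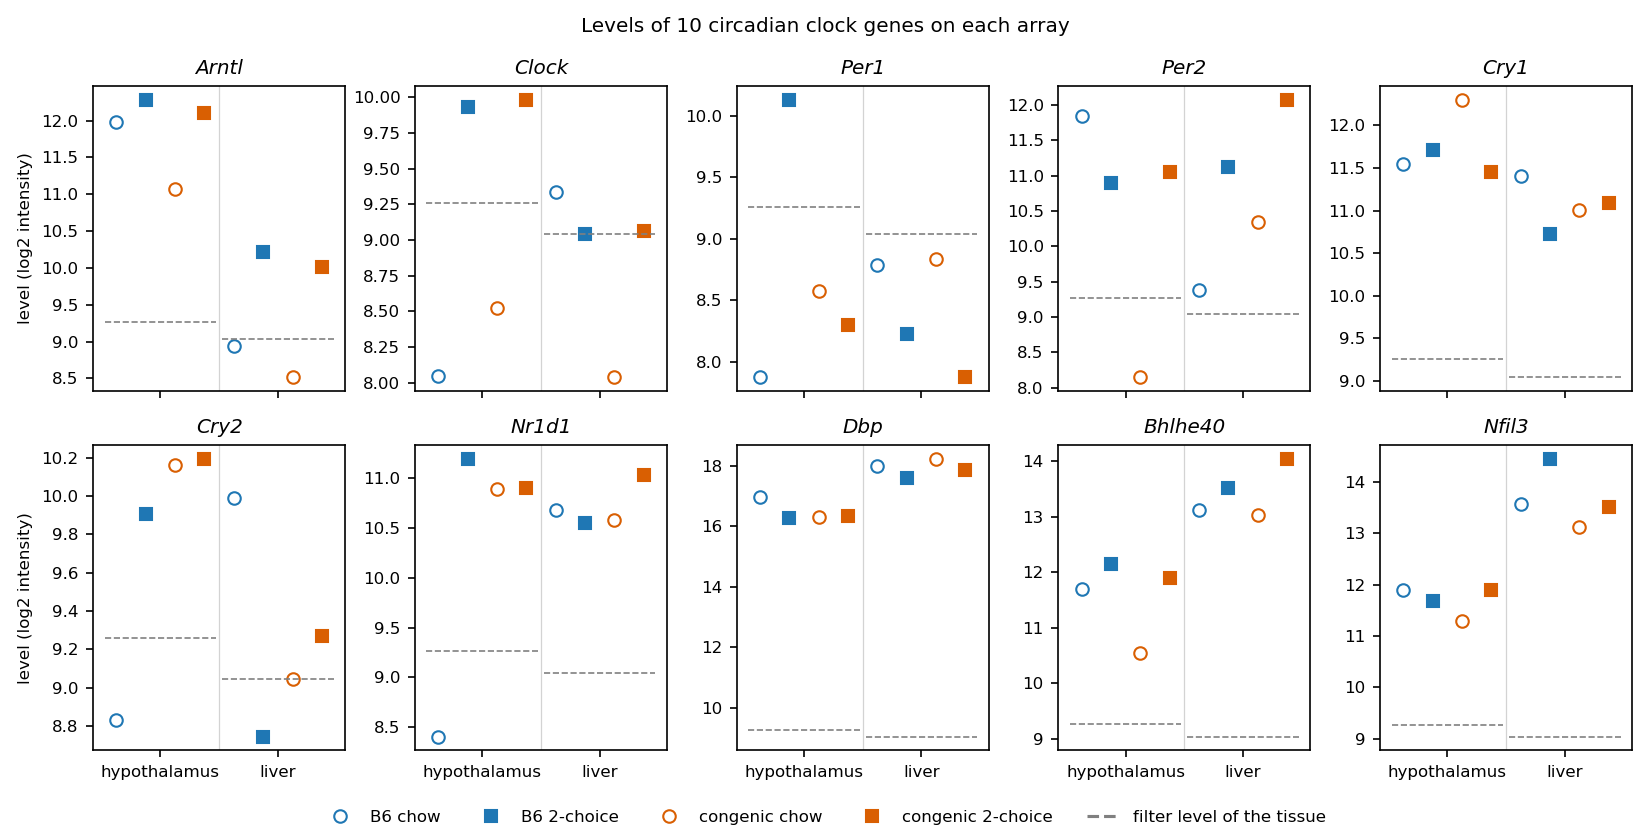
Log2 intensity (y axis) of each of the 10 genes on each of the 8 arrays, with 1 point per pool of 6 mice; tissues were normalized separately and each panel has its own scale. Dashed lines mark the filter level, 9.26 in hypothalamus and 9.04 in liver, and Clock and Per1 lie around or under it.

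The first comparison was between the tissues. Arntl was lower in liver than in hypothalamus, while Bhlhe40 and Nfil3 were higher, each in all 4 pairs of the same strain and diet. For this comparison the 8 arrays were normalized together. Arntl, the activator of the loop, differed by -2.87 in the B6 chow pair, -1.81 in B6 2-choice, -2.34 in congenic chow and -1.83 in congenic 2-choice. Its mean difference was -2.21 ± 0.41 log2 units (SE, 4 pairs), a level 4.63-fold lower in liver (limma with the pair as a block, Benjamini-Hochberg adjusted p = 0.00124). Bhlhe40 (DEC1), a repressor at E-boxes, was higher in liver by 1.51, 1.35, 2.65 and 2.11 in the same order of pairs. The mean of 1.91 ± 0.30 was a 3.75-fold difference (adjusted p = 3.45e-04). Nfil3 (E4BP4), the D-box repressor, was higher by 1.68, 2.73, 1.95 and 1.65, a mean of 2.00 ± 0.28 or 4.00-fold (adjusted p = 1.42e-04). Thus 3 of the 8 members tested passed, 2 higher and 1 lower in liver, beside 49.1% of all 19807 probes (24.1% higher and 25% lower), so the share among clock genes was no larger than that of all probes.

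Dbp, the D-box activator, was 0.42 ± 0.18 higher in liver and did not pass (adjusted p = 0.0812), with -0.06, 0.34, 0.85 and 0.53 in the pairs as labelled. If the strains of the hypothalamus chow arrays were exchanged, Dbp was higher in liver in every pair (0.67, 0.34, 0.13 and 0.53). With each array centred on its median in place of quantiles it was 1.76 higher and passed. Leaving out the hypothalamus B6 chow or the liver B6 chow array, Dbp also passed, at 0.58 and 0.57. The repressors Cry1 (-0.42 ± 0.36) and Cry2 (-0.25 ± 0.53) and Nr1d1 (0.67 ± 0.52) had pairs of both signs as labelled. Per2 differed by -2.20 in the B6 chow pair and by 0.54, 2.39 and 1.26 in the others (mean 0.50 ± 0.66, adjusted p = 0.568), and passed at 1.40 without the liver B6 chow array. Those Per2 pairs are as labelled. Exchanged, Per2 differed by 1.40 in the B6 chow pair and by -1.21 in the congenic chow pair, and Cry1 was lower in liver in every pair. Without the 2 hypothalamus chow arrays the same 3 genes passed as with them. With no scaling beyond the authors', only Arntl passed, and Bhlhe40 (1.78, adjusted p = 0.0815) and Nfil3 (1.95, adjusted p = 0.0503) did not. Bulk RNA does not tell fewer cells of a type from less RNA per cell.

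**Figure D2:**
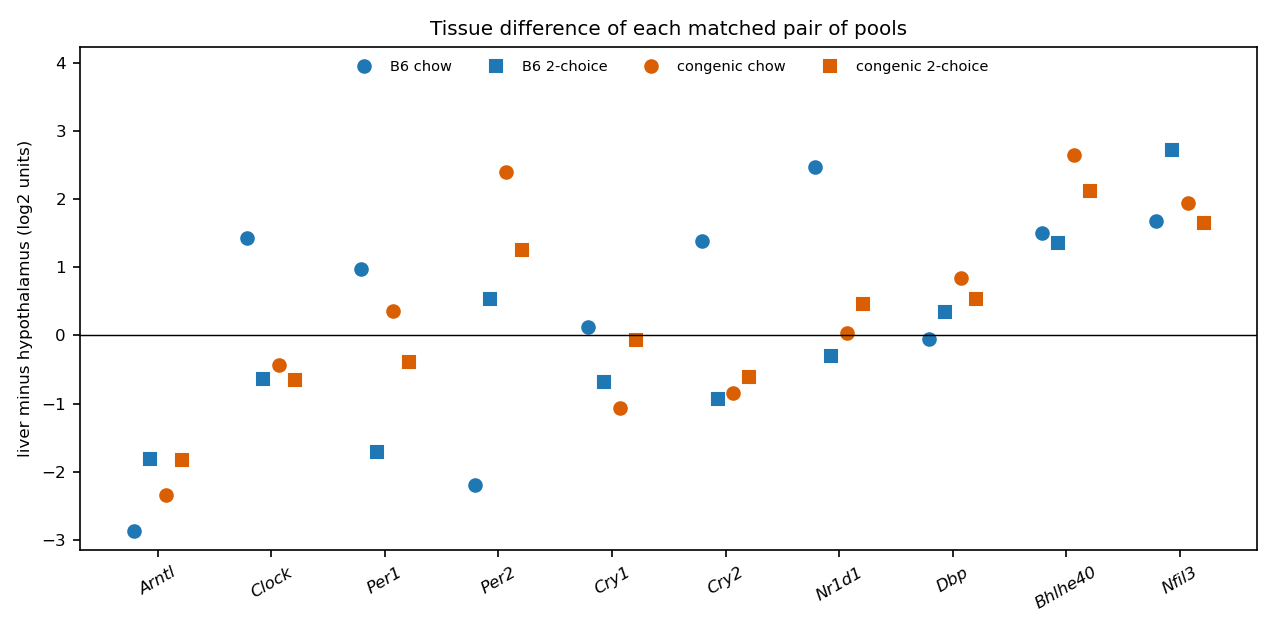
Difference in level between liver and hypothalamus (y axis, log2 units) for each gene, with 1 point for each pair of the same strain and diet. All 4 points lie under 0 for Arntl and above 0 for Bhlhe40 and Nfil3.

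Lists of other genes around the clock were counted in the same way, and each count stands beside the 24.1% of all probes higher and 25% lower in liver. Of the other loop and period genes, 6 were tested and 5 passed, 4 higher in liver and 1 lower. Bhlhe41 (DEC2), the close relative of Bhlhe40, was 4.90-fold higher in liver (log2 2.29 ± 0.40, adjusted p = 8.02e-04). Rora, the activator that competes with REV-ERB at its sites, was 1.19 ± 0.24 higher, Timeless 1.49 ± 0.36 and Nr1d2 (REV-ERB beta) 0.81 ± 0.29. Tef, a relative of Dbp, was the lower one (-0.45 ± 0.16, adjusted p = 0.0443). Of 12 clock protein modifiers tested, 5 were higher and 4 lower in liver. The casein kinase gene Csnk1e, whose product phosphorylates PER, was 13.6-fold lower in liver (log2 -3.77 ± 0.23), and Nampt, the enzyme of NAD salvage, 6.49-fold higher (2.70 ± 0.39). Of 10 suprachiasmatic nucleus genes tested, 7 were lower in liver and 1 higher. Vip, the peptide that couples its cells, was at -4.86 ± 0.43 and Avp at -7.19 ± 0.36, while Prok2, an output signal of the nucleus, was higher in liver (1.85 ± 0.43, adjusted p = 0.00491). Of 19 rhythmic liver output genes 15 were higher in liver and 0 lower, among them Cyp7a1, the rate-limiting enzyme of bile acid synthesis, at 6.16 ± 0.38. Of 6 temperature-responsive genes 2 were higher and 3 lower, with the cold-induced RNA-binding gene Cirbp at -2.13 ± 0.27. Of 8 glucocorticoid-responsive genes 4 were higher and 2 lower, with the receptor chaperone gene Fkbp5 at 1.79 ± 0.38.

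The second comparison was between 2-choice and chow in liver. Per2, Arntl, Bhlhe40 and Nfil3 had higher levels in the 2-choice pool of both strains and Dbp lower levels, and none of them passed. Per2, a repressor of the loop, was at 9.39 on chow and 11.12 on 2-choice in B6, and at 10.34 and 12.07 in congenic livers. Each 2-choice pool lay above both chow pools, and how many of all probes do so was not counted. The difference was 1.73 in both strains, a mean of 1.73 ± 0.86 or 3.32-fold (limma on all 8 arrays, adjusted p = 0.612), and 1.88% of the probes tested were as far apart in mean.

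Arntl was at 8.94 on chow and 10.22 on 2-choice in B6 livers, and at 8.52 and 10.01 in congenic livers. The 2 chow values were dimmer than the filter level of 9.04, and the size of the difference (1.39 ± 0.54, adjusted p = 0.531) depends on values near the floor. The 2-choice pools again lay above the chow pools without overlap, a pattern whose share among all probes was not counted.

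Bhlhe40 was at 13.12 and 13.51 in B6 and at 13.03 and 14.04 in congenic livers (0.70 ± 0.33, adjusted p = 0.594). Nfil3 was at 13.56 and 14.44 in B6 and 13.11 and 13.52 in congenic livers (0.64 ± 0.31, adjusted p = 0.594), and its chow and 2-choice levels overlapped. Dbp was at 17.99 and 17.59 in B6 and at 18.21 and 17.87 in congenic livers, a difference of -0.37 ± 0.19 (adjusted p = 0.622). The levels of Bhlhe40 and Dbp also lay apart between the diets without overlap. Such a separation is a description and no test, and its share among all probes was not counted.

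The other members had no common direction. Nr1d1 went from 10.68 to 10.55 in B6 and from 10.58 to 11.03 in congenic livers (0.16 ± 0.73). Cry1 went from 11.41 to 10.73 and from 11.01 to 11.09 (-0.30 ± 0.46). Cry2 went from 9.99 to 8.74 in B6 and from 9.04 to 9.27 in congenic livers (-0.51 ± 0.66). The untested Per1 differed by -0.56 in B6 and -0.96 in congenic livers, all 4 values being under the filter level.

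limma called 0 of the 8 members, beside 0% of all 19807 probes (1731 with an unadjusted p under 0.05, of which Arntl was the 1 member). A second rule asked for a mean 1.5-fold apart or more and for 1 sign in both strains, and by it 4 of 8 members were higher and 0 lower, beside 12.5% of all probes higher and 12.1% lower. With quantiles over all 8 arrays 3 of 8 were higher, and with the filter at the 60th percentile 3 of the 6 members left. The median difference was 0.40 over the 8 members and -0.01 over all probes. The SEs of this fit also hold the spread between hypothalamus pools. Fitted to liver only, on its 4 arrays, limma called 639 of the 19807 probes and 0 members, with adjusted p = 0.0678 for Per2 and Bhlhe40 and 0.0699 for Nfil3. Over the same arrays, macrophage and microglia markers summed to 15.22 and 15.62 on chow and 14.10 in both 2-choice livers. By the second rule 3 of the 4 measured markers were lower on 2-choice, while Adgre1 was at 9.44 and 9.58 in B6 on chow and 2-choice. Of their defining genes, Clec4f of Kupffer cells was at 15.06 and 15.36 on chow and 13.87 and 13.88 on 2-choice. Their part in the clock gene values was not tested.

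**Figure D3:**
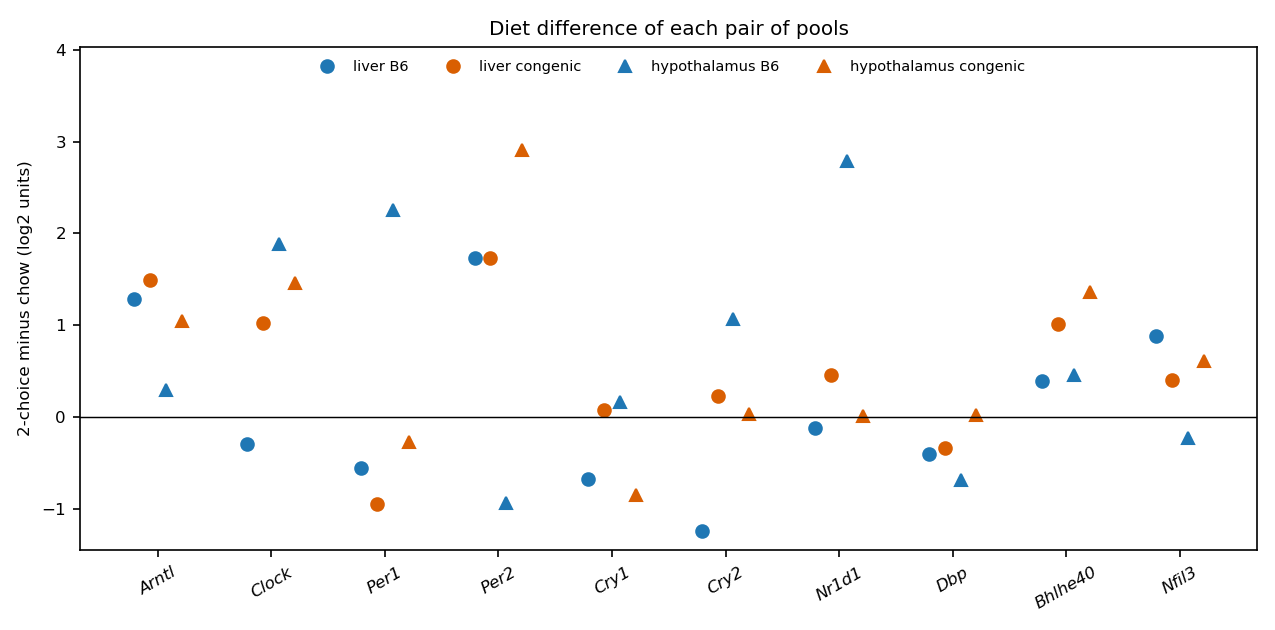
Difference between 2-choice and chow (y axis, log2 units) for each gene in each tissue and strain, 1 point per pair of pools. In liver (circles) both strains lie above 0 for Arntl, Per2, Bhlhe40 and Nfil3, and in hypothalamus (triangles) the 2 strains lie on opposite sides of 0 for Per2.

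Of the genes in 6 lists around the clock, 0 passed in liver. Of 18 rhythmic liver output genes tested, 5 met the 1.5-fold rule as higher on 2-choice and 1 as lower, with a median of 0.05. That rule, on the mean of both strains with 1 sign in both, took 12.5% and 12.1% of all probes. Those furthest apart on average were Alas1, the first enzyme of haem synthesis, at -1.38 ± 0.17 (adjusted p = 0.125), the pyruvate dehydrogenase kinase gene Pdk4 at 1.36 ± 0.75 and Gadd45g, a stress-induced growth arrest gene, at 1.05 ± 0.20 (adjusted p = 0.218). Of 5 other loop and period genes tested, 0 met the 1.5-fold rule. Among them Tef was at -0.47 ± 0.17 and Nr1d2 at -0.20 ± 0.22. Of 12 modifiers, Fbxl21, a ubiquitin ligase subunit for CRY, was the 1 that met it (1.85 ± 0.70). It differed by 0.82 in B6 and 2.89 in congenic livers. Of 7 glucocorticoid-responsive genes tested, Tsc22d3 was the 1 that met it (0.83 ± 0.20), and of 7 temperature-responsive and 4 suprachiasmatic nucleus genes, 0 did.

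The same diets were compared in hypothalamus. Arntl (0.67 ± 0.54), Nr1d1 (1.40 ± 0.73) and Bhlhe40 (0.91 ± 0.33) were higher on 2-choice in both strains, and none passed. Bhlhe40 was at 11.71 on chow and 12.16 on 2-choice in B6, and at 10.54 and 11.90 in congenic pools (adjusted p = 0.174). Both 2-choice values lay above both chow values. Arntl was at 11.98 and 12.28 in B6 and at 11.06 and 12.11 in congenic pools, also without overlap. In this tissue too the share of all probes without overlap was not counted. Nr1d1 was at 8.41 on the B6 chow array, under the filter level, and at 11.19, 10.89 and 10.90 on the B6 2-choice, congenic chow and congenic 2-choice arrays, so its mean difference rests on 1 array.

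Per2 was at 11.85 on chow and 10.90 on 2-choice in B6, and at 8.15 and 11.06 in congenic pools, as labelled (0.98 ± 0.84, adjusted p = 0.533). The congenic chow array stood apart from the other 3. Cry1 was at 11.55 and 11.71 in B6 and 12.30 and 11.45 in congenic pools (-0.34 ± 0.46), and Cry2 at 8.83 and 9.90 and at 10.16 and 10.19 (0.55 ± 0.69). Dbp was at 16.95 and 16.26 in B6 and at 16.30 and 16.32 in congenic pools (-0.33 ± 0.19). Nfil3 was at 11.90 and 11.67 in B6 and at 11.29 and 11.90 in congenic pools (0.19 ± 0.30). If the strains of the chow arrays were exchanged, the diet differences of Cry1 were -0.59 in B6 and -0.10 in congenic pools. Those of Dbp were then -0.04 and -0.63, and those of Cry2 and Nfil3 had both signs. The untested Clock differed by 1.89 in B6 and 1.46 in congenic pools, from chow values under the filter level to 2-choice values above it.

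limma called 0 of 8 members in hypothalamus, beside 0.490% of 19807 probes, with Bhlhe40 the 1 member at an unadjusted p under 0.05. Without the hypothalamus B6 chow array Per2 (3.19) and Bhlhe40 (1.43) passed, beside 5.04% of all probes, and without the congenic chow array Nr1d1 (3.07) passed, beside 10.8%. With 3 hypothalamus arrays the spread in such fits comes from liver alone. By the 1.5-fold rule 3 of 8 were higher and 0 lower, beside 21.8% and 16.6% of all probes. The authors' scalings of chow and 2-choice lie far apart in hypothalamus, and 70 probes were called higher and 27 lower. With each array centred on its median, the probes tested had a median difference of 0.76. Of them 7167 were higher and 466 lower, and 4 members passed (Arntl 1.62, Nr1d1 1.75, Bhlhe40 1.79 and Nfil3 1.14). With no further scaling that median was 2.02, and 15377 were higher and 53 lower. All 9 members tested then passed, Clock being above the filter. Relative to those medians Cry1 and Dbp lay low and Arntl, Nr1d1 and Bhlhe40 high under both scalings. The sign of Cry1 and Dbp turned from that under quantiles.

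**Figure D4:**
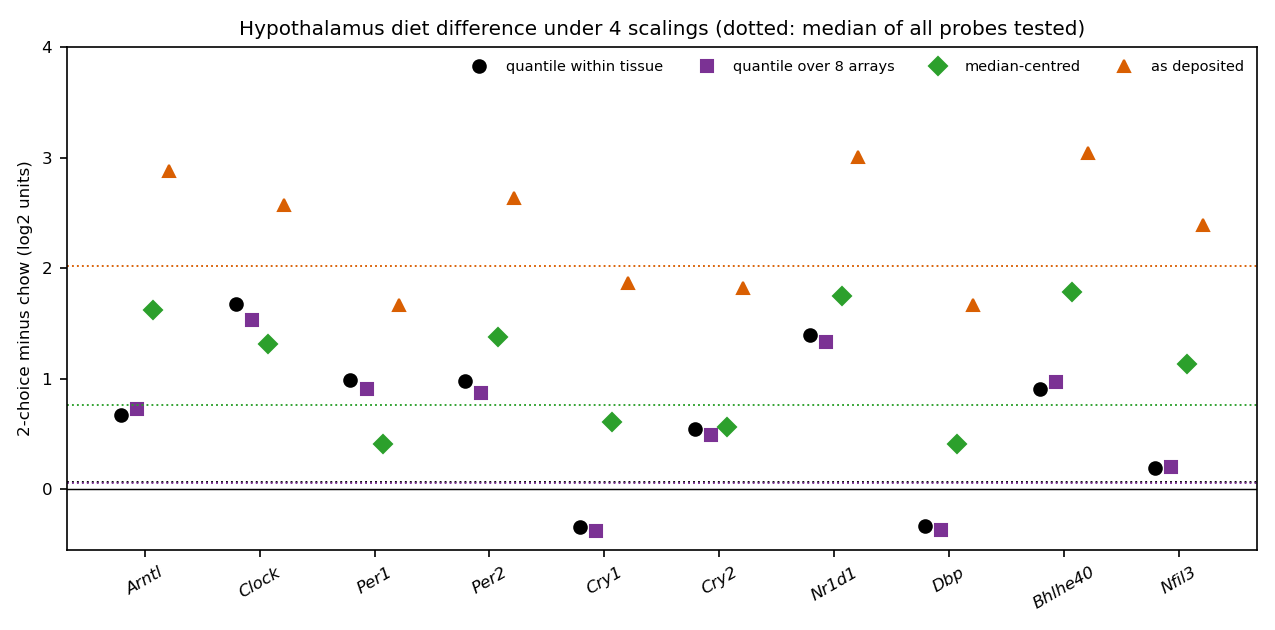
Hypothalamus difference between 2-choice and chow (y axis, log2 units), mean of both strains, under 4 scalings of the same arrays. Dotted lines mark the median of all probes tested, 0.07 for quantiles within tissue, 0.06 over 8 arrays, 0.76 for median-centred and 2.02 for deposited values; Cry1 and Dbp lie under the line of each scaling.

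Markers of other cell types differed between the diets in hypothalamus. Anterior pituitary markers summed to 11.70 and 12.09 on chow and 13.93 and 15.27 on 2-choice, with 3 of 5 at least 1.5-fold higher in both strains. By the 1.5-fold rule 21.8% of all probes were higher and 16.6% lower. Of these, Gh, the growth hormone of somatotrophs, was at 8.28 and 8.74 on chow and at 14.31 (B6) and 12.24 (congenic) on 2-choice. Lhb was lower on 2-choice in both strains, from 10.21 to 9.78 in B6 and from 10.40 to 9.96 in congenic pools. Tshb went from 10.87 to 10.06 in B6 and from 9.06 to 10.29 in congenic pools. Hepatocyte markers summed to 11.39 and 12.04 on chow and 12.82 and 13.47 on 2-choice. By the 1.5-fold rule 3 of the 6 with a probe were higher and 0 lower, beside those same shares of all probes. Among the 6, Tat went from 10.51 to 8.98 in B6 and from 8.02 to 8.86 in congenic pools. On chow, Alb (8.75 in B6 and 8.81 in congenic pools) and Fgb (8.09 and 8.31) lay under the filter level of 9.26. Oligodendrocyte markers summed to 16.80 and 17.04 on chow and to 17.60 and 17.95 on 2-choice. The part of these cell types in the clock gene values was not tested.

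Of the same lists, 1 of 14 rhythmic liver output genes tested in hypothalamus passed, beside 0.490% of all probes, and by the 1.5-fold rule 7 were higher and 0 lower, beside 21.8% and 16.6%. It was Upp2, a uridine phosphorylase of liver, at 9.02 and 9.49 on chow and 11.66 and 11.35 on 2-choice (2.25 ± 0.22, adjusted p = 0.00806). Its B6 chow value was under the filter level of 9.26, so the size of the difference depends on values near the floor. Of 6 temperature-responsive genes 4 were higher by that rule and 0 lower, and 1 passed, the mitochondrial chaperonin gene Hspd1 (1.07 ± 0.16, adjusted p = 0.0329). It was at 14.20 and 14.16 on chow and 15.30 and 15.20 on 2-choice. Without a trend in the variance model 0 probes passed in hypothalamus, these 2 included. Of 11 modifiers tested 0 passed and 4 were higher and 1 lower by that rule, with Csnk2a1, a casein kinase subunit, at 1.27 ± 0.26 (adjusted p = 0.0688). Of 6 other loop and period genes 0 passed and 2 were higher and 1 lower, with Nr1d2 at 0.86 ± 0.22 (adjusted p = 0.105) and Arntl2 at -1.39 ± 0.85. Among 12 suprachiasmatic nucleus genes 0 passed and 2 were higher and 1 lower, with the homeobox gene Six6 at 1.76 ± 0.75, and of 7 glucocorticoid-responsive genes 0 passed and 2 were higher and 1 lower.

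Over both tissues, Arntl and Bhlhe40 were higher on 2-choice in each of the 4 pairs. Arntl differed by 1.29 (liver B6), 1.49 (liver congenic), 0.30 (hypothalamus B6) and 1.04 (hypothalamus congenic), a mean of 1.03 ± 0.42 (limma with the pair as a block, adjusted p = 0.495). Bhlhe40 differed by 0.39, 1.01, 0.45 and 1.36 in that order (0.80 ± 0.26, adjusted p = 0.443). Per2 (1.36 ± 0.60) was lower in 1 of the pairs, and Dbp (-0.36 ± 0.16) was lower in 3 of the 4 as labelled. If the strains of the hypothalamus chow arrays were exchanged, Dbp was lower in each of the 4. By the 1.5-fold rule, on the mean and with 1 sign in all 4 pairs, 2 of the 8 members were higher and 0 lower. Of 15466 probes the rule took 6.23% as higher and 3.93% as lower. limma called 0 members and 0% of probes (1491 with an unadjusted p under 0.05, among them the 3 members Arntl, Per2 and Bhlhe40). The difference between the tissues in their diet change was tested and 0 of 8 members passed, beside 0.0647% of probes. It was largest for Nr1d1 (-1.23 ± 1.04, liver minus hypothalamus) and Cry2 (-1.06 ± 0.98).

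The third comparison was between the strains. In liver Per2 was higher in congenic than in B6 pools by 0.96 on chow and 0.95 on 2-choice (0.95 ± 0.86, adjusted p = 0.909), and Nfil3 was lower by 0.45 and 0.92 (-0.69 ± 0.31, adjusted p = 0.755). These 2 were the members that met the 1.5-fold rule, 1 of 8 higher and 1 of 8 lower, beside 9.16% and 13.3% of all probes. Dbp was at 0.22 and 0.28 in the chow and 2-choice pairs, and Arntl at -0.42 and -0.21. Cry1, Cry2, Nr1d1 and Bhlhe40 had pairs of opposite sign, with means of -0.02, -0.21, 0.19 and 0.22. limma called 0 of 8 members and 0% of 19807 probes (1318 at an unadjusted p under 0.05, 0 members).

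In hypothalamus the strains as labelled were far apart on chow and close on 2-choice. In the 2-choice pair the 8 members tested differed by -0.29 (Nr1d1) to 0.29 (Cry2), with Per2 at 0.15 and Arntl at -0.17. In the chow pair they differed by -3.70 (Per2) to 2.49 (Nr1d1), with Cry2 at 1.33 and Bhlhe40 at -1.16. The median absolute gap over all probes tested was 0.61 in the chow pair and 0.21 in the 2-choice pair. The mean of both pairs as labelled was -1.77 ± 0.84 for Per2 (adjusted p = 0.823) and 1.10 ± 0.73 for Nr1d1. With the strains of the chow arrays exchanged both signs turned, to 1.93 ± 0.80 for Per2 and -1.39 ± 0.66 for Nr1d1 (adjusted p = 0.788 for each). As labelled, Cry2 (0.81 ± 0.69) met the 1.5-fold rule as higher and Bhlhe40 (-0.71 ± 0.33) as lower, 1 of 8 each, beside 10.2% and 10.1% of all probes. Exchanged, neither did (-0.52 and 0.45), and Per2 met it as higher and Nr1d1 as lower, beside 9.97% and 10.4%, so no direction between strains is settled for these genes in hypothalamus. limma called 0 of 8 members and 0% of probes (983 at an unadjusted p under 0.05, 0 members). As labelled, Per2 passed at -3.39 without either 2-choice array, beside 4.82% and 4.73% of all probes, where the difference rests on the chow pair and the spread on liver. Without the chow pair 1 pair is left and no test. The strain difference did not differ between the tissues beyond the threshold in any of the 8 members (0 called, beside 0% of 15466 probes), with Per2 at 2.73 ± 1.22 (adjusted p = 0.796) as labelled and -0.97 ± 1.15 exchanged. As labelled it passed at 4.34 without either hypothalamus 2-choice array, beside 4.33% and 4.36% of all probes.

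**Figure D5:**
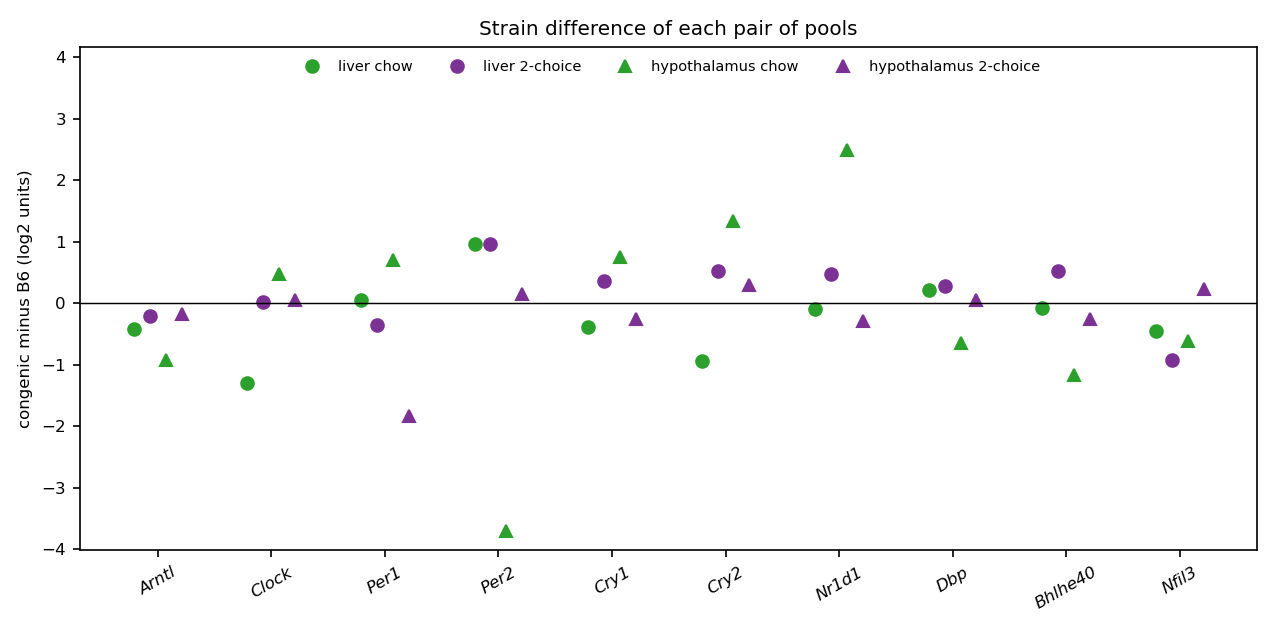
Difference between congenic and B6 pools (y axis, log2 units), as labelled, for each gene in each tissue and diet, 1 point per pair of pools. The hypothalamus 2-choice points of the 8 genes tested lie between -0.29 and 0.29, and the hypothalamus chow points between -3.70 and 2.49.

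Whether diet acted differently in the strains has no error term, since each cell of the design holds 1 pool, and only values are given. In liver the diet difference of the congenic strain minus that of B6 was -0.004 for Per2, 0.07 for Dbp and 0.20 for Arntl, where the median size over all probes tested was 0.48. It was 1.47 for Cry2 and 0.76 for Cry1. In hypothalamus it was 3.86 for Per2 and -2.78 for Nr1d1, beyond which lay 1.19% and 5.88% of the probes tested, with a median size of 0.67. Exchanged, the diet differences were 2.76 in B6 and -0.79 in congenic pools for Per2, and 0.30 and 2.50 for Nr1d1.

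The genes whose levels were most like those of Dbp and Arntl were sought over the 8 arrays after each tissue's mean was subtracted, among 8187 other genes that passed the filter in both tissues. Nearest to Dbp were Chst7 (Pearson r = 0.978), Tmem39a (0.976), Rin3 (0.975), Slc30a6 (0.975) and Tex12 (0.973), and 62 genes were over 0.9. Nearest to Arntl were Med30 (0.982), Hikeshi (0.973), the fatty acid elongase gene Elovl5 (0.969), Plekha4 (0.968) and Apbb1ip (0.967), and 37 genes were over 0.9. No other member is among these 10 genes. The 8 points share arrays and scalings, and these coefficients are descriptions with no test.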

How the data were processed

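The deposited values are linear intensities from 8 arrays; what the authors did to normalize them is not given in the sources used here. Within each tissue and diet, sorted values of B6 and congenic arrays coincided within 0.244%. Of 33012 probes, 14411 carried 1 gene symbol, 247 several and 18354 none in the platform annotation, which can be old. The intensity was taken to log2 and quantile normalized within each tissue's 4 arrays, or over all 8 for the tissue comparison, and probes under the 40th percentile of mean level were left out. limma 3.58.1 (R 4.3.3; lmFit, eBayes with a trend) was fitted over all probes, with Benjamini-Hochberg adjustment over all probes tested and a threshold of 0.05. Effects within a tissue and their difference between tissues came from 1 fit whose terms were tissue and, nested in it, strain and diet (residual df 2), and tissue and both-tissue diet effects from fits with pairs as blocks (residual df 3). Each group is 1 pool, so p-values rest on the spread between pools of different strain or diet, and the number of arrays limits the precision. The procedure was tested on simulated data. Gene lists held other loop and period genes, clock protein modifiers, rhythmic output genes of liver, suprachiasmatic nucleus genes, temperature-responsive genes and glucocorticoid-responsive genes. The lists overlap, so some genes count in more than 1. Fkbp5, Tsc22d3 and Cdkn1a are among both the rhythmic output and the glucocorticoid-responsive genes. Usp2 is among both the modifiers and the output genes, and the member Per1 is among the glucocorticoid-responsive genes. In the tissue comparison the text names only some of the list genes that passed, by no fixed rule. In the diet comparisons it names those that passed or, where none did, up to 3 past the 1.5-fold rule. These were not always the furthest apart. A few others were chosen after their values were seen. Members and lists were chosen with earlier results of these data known. Other scalings, filters, variance models, single-tissue fits and the removal of each array were tried, and the strains of the 2 hypothalamus chow arrays were exchanged.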

Additional observations from a re-analysis of the deposited data

Results flagged for a closer look

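The diet difference of Per2 in hypothalamus had opposite signs in the 2 strains as labelled, -0.94 in B6 and 2.91 in congenic pools, a gap of 3.86 log2 units. Each strain has 1 pair of pools, so the difference between strains was not tested. It rests on the congenic chow array, where Per2 was at 8.15, under the filter level of 9.26, and whose description names the other strain. With the strains of the chow arrays exchanged the signs were again opposite, 2.76 in B6 and -0.79 in congenic pools.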

How the results depend on the processing

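Of 517 single-gene values under other planned settings, 483 kept their direction and their side of the threshold, 16 turned sign, 15 came to pass, 2 no longer passed and 1 untested value turned sign. Of 640 with an array left out, 546 kept both, 62 turned sign, 10 came to pass and 22 untested values turned sign. With no scaling beyond the authors', the hypothalamus diet difference turned sign for Cry1 (1.87) and Dbp (1.67), its difference between tissues for Arntl (-1.51), Per2 (-0.89), Cry1 (-2.13) and Nfil3 (-1.79), and the both-tissue diet difference for Cry1 (0.805) and Dbp (0.61). Members called were then 9 for diet in hypothalamus, 6 for diet by tissue and 1 for tissue, and 9 and 4 members met the 1.5-fold rule for diet in hypothalamus and over both tissues. With median centring the values were 0.61 for Cry1 and 0.41 for Dbp in hypothalamus, -0.26 (Arntl), -0.88 (Cry1) and -0.54 (Nfil3) for diet by tissue and 0.175 for Cry1 over both tissues, with 4 members called in hypothalamus and 6 past the 1.5-fold rule. With quantiles over 8 arrays Dbp was at 0.041 for diet by tissue and Cry2 at -0.028 over both tissues. At the 60th percentile filter 1 member met the 1.5-fold rule for strain in hypothalamus and 1 for diet over both tissues. The median diet difference of the probes tested in hypothalamus was 2.02 with deposited values, 0.76 with median centring and 0.06 with quantiles over 8 arrays. The cause of these moves was not tested. Probes called in hypothalamus for diet were 97, against 15430 with deposited values, 7633 with median centring, 202 with quantiles over 8 arrays, 43 at the 60th percentile, 753 with 4 arrays alone and 0 without a variance trend. For diet by tissue they were 10, against 10781, 3901, 0 and 2 under the first 4 of those settings and 0 without a trend. For tissue they were 9729 against 5579 with deposited values. The comparisons with 0 probes called gave 639 (diet) and 252 (strain) with the 4 liver arrays alone, 21 for strain with the 4 hypothalamus arrays alone, 1 for strain in hypothalamus with deposited or median-centred values, and 5 for diet over both tissues with deposited values. With the strains of the hypothalamus chow arrays exchanged, an alternative chosen after seeing the data, strain in hypothalamus was 0.373 (Arntl), 1.928 (Per2), -0.505 (Cry1), -0.522 (Cry2), -1.39 (Nr1d1), 0.357 (Dbp), 0.454 (Bhlhe40) and 0.418 (Nfil3), and strain by tissue -0.689 (Arntl), -0.973 (Per2), 0.489 (Cry1), 0.313 (Cry2), 1.579 (Nr1d1), -0.109 (Dbp) and -0.234 (Bhlhe40), all of opposite sign to those as labelled. Probes called were then 250 for diet in hypothalamus, 35 for diet by tissue and 3 for strain in hypothalamus. With 1 array left out, probes called ranged from 9 to 260 for diet and 10 to 77 for strain in liver, 25 to 2131 for diet and 0 to 954 for strain in hypothalamus, 4 to 1414 for diet by tissue and 3 to 674 for strain by tissue. With each array left out in turn, the values that turned sign ranged as follows. For strain by tissue the range was -0.14 to 0.569 (Arntl), -0.751 to 0.25 (Cry1) and -2.036 to 0.496 (Nr1d1). For diet by tissue the range was -0.731 to 0.257 (Bhlhe40), -0.467 to 0.567 (Cry1), -0.396 to 0.325 (Dbp), -2.907 to 0.155 (Nr1d1) and -1.461 to 2.719 (Per2). For strain in liver the range was -0.087 to 0.525 (Bhlhe40), -0.398 to 0.363 (Cry1), -0.929 to 0.537 (Cry2) and -0.1 to 0.479 (Nr1d1). For diet in hypothalamus the range was -0.868 to 0.166 (Cry1), -0.699 to 0.022 (Dbp), -0.234 to 0.629 (Nfil3) and -0.986 to 3.193 (Per2). For diet in liver the range was -0.683 to 0.078 (Cry1), -1.266 to 0.233 (Cry2) and -0.127 to 0.452 (Nr1d1). For strain in hypothalamus the range was -0.266 to 0.735 (Cry1), -0.66 to 0.057 (Dbp), -0.59 to 0.231 (Nfil3), -0.307 to 2.225 (Nr1d1) and -3.389 to 0.164 (Per2). For diet over both tissues the range was -0.33 to 0.445 (Cry2). For tissue the range was -0.143 to 1.444 (Per2). Members called ranged from 0 to 2 for diet in hypothalamus, 0 to 1 for strain in hypothalamus, 0 to 1 for strain by tissue and 3 to 5 for tissue, and stayed at 0 in the other comparisons. Pairs used as blocks were matched by group, and no pairing by replicate number could be made, since the labels give none. Without the pair block the same 3 members were called between tissues. A second probe was not tried, since each member has 1, and the 1.5-fold rule was not recomputed with an array left out.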
